A study of Mus musculus with 16 samples.

Results

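The 49 genes described here encode the machinery of DNA replication and S phase. They were taken as a named list of origin licensing, replication fork, nucleotide supply and replication-coupled chromatin genes, matched to the array's probe annotation with older symbols updated. All 49 had a probe, 4 of them under an older symbol (Cdc45, Orc1, Orc2 and Orc6), and 48 were measured. Prim2, the large primase subunit, was left out because both of its probes lay above background on 0 of 16 arrays. The 48 genes belong to 17484 genes tested in all.

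The measurements come from Ba/F3, an interleukin-3-dependent mouse pro-B cell line, carrying HA-tagged FOXO3(A3)-ER or FOXO4(A3)-ER from a pcDNA3 vector. FOXO factors are forkhead transcription factors that PKB inactivates by phosphorylation, A3 marks a mutant in which those sites are alanine, and the ER domain makes the fusion respond to 4-hydroxytamoxifen (4-OHT). Every group grew in medium with interleukin-3, and the lines were clones kept under G418. The labels do not state how many clones stood for each fusion. Cells were given 4-OHT for 2 h or 8 h, and each of 16 arrays held 1 treated culture in 1 dye against the same line's time 0 pool in the other. Each line at each time formed a group, which gave 4 groups of 4 arrays, with dyes swapped inside every group. Cells lacking a fusion, and cells left untreated for the same hours, were not among the arrays. Because 1 pool per line served as the control, ratios against time 0 leave out the spread of time 0 cultures, and the 2 h and 8 h ratios of a line share that pool.

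Gene probes had a median signal per array of 94.8 to 169 in the Cy5 channel and of 98.2 to 161 in the Cy3 channel, against local backgrounds of 38 to 45. The number of arrays limits the precision, and the SE of a replication gene in a group ran from 0.0358 to 0.0832 on the log2 scale. Of 11 B-lineage markers measured, 1 (Cd79b) lay above the external control spots in the time 0 channel of all 16 arrays and 10 did so on 0 arrays, so the pro-B identity is taken from the labels. Of 12 mast cell, basophil and myeloid markers, Cpa3 and Gata2 lay above those spots on all 16 arrays, with median time 0 signals of 21746 and 2492, and 8 did so on 0 arrays. Against time 0 limma called 0 B-lineage markers in any group, with at most 1 of 11 at an unadjusted p under 0.05. The share of all genes at that looser cutoff was not counted. Limma called 1 of the 12 mast cell, basophil and myeloid markers in every group, Gata2. Its ratios were -0.47 and -0.41 in FOXO3 (2 h and 8 h) and -1.06 and -0.69 in FOXO4. Of 7 T, NK and erythroid markers Klf1 fell in every group, at -0.77 and -0.81 in FOXO3 and -1.02 and -0.86 in FOXO4. At 8 h Hba-a1 rose by 1.76 in FOXO3 and 0.34 in FOXO4, and Cd3e by 0.41 in FOXO3. The shares of all genes called in these groups are given with the members' counts, and the part of these markers in the results was not tested.

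Replication begins with licensing in G1, when the origin recognition complex, CDC6 and CDT1 load the MCM2 to MCM7 ring onto DNA. CDC45 and GINS turn the ring into an active helicase, polymerases copy the strands with the PCNA clamp and RPA-coated single strands, and ribonucleotide reductase, thymidine kinase and thymidylate synthase supply the nucleotides. Many of these genes are transcribed in G1/S by E2F factors, which RB-family pocket proteins hold back. In blood cells FOXO factors are known for slowing the cell cycle. RNA was measured in bulk, so fewer cells in S phase and less RNA per cell cannot be told apart.

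The promoter letters below come from members picked at the low and the high end of the mean 8 h ratio. The sequences are RefSeq promoter windows of GRCm38.p6, from 250 bases before to 50 bases after a gene's start, 5′ to 3′ along the gene, and capitals mark E2F letters (TTTCCCGC, TTTGGCGC, TTTCGCGC or TTTGCCGC on either strand). Pold1, Cdca7, Uhrf1 and Cdt1 are the members of lowest mean 8 h ratio among those whose window holds such letters. Rpa3 and Mcm6 are the members of highest mean 8 h ratio that have a window. They were picked without regard to E2F letters, so the printed windows do not compare low and high members for these letters. Tk1, the lowest of all members at -0.86, held no such letters in its window and is not printed.
Pold1 (chr7:44548766-44549065, minus strand): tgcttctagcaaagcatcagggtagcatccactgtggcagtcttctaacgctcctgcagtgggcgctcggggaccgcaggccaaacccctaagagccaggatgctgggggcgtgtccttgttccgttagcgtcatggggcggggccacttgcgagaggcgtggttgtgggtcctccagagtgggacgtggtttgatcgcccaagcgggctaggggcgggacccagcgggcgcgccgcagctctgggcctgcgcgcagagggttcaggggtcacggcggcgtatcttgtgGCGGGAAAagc
Cdca7 (chr2:72475969-72476268, plus strand): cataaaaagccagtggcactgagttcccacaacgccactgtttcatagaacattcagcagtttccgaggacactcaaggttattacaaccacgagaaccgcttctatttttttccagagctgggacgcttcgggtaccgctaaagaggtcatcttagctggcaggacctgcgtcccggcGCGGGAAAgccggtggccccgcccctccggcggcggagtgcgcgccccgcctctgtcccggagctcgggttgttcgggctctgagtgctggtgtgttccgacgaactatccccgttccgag
Uhrf1 (chr17:56304063-56304362, plus strand): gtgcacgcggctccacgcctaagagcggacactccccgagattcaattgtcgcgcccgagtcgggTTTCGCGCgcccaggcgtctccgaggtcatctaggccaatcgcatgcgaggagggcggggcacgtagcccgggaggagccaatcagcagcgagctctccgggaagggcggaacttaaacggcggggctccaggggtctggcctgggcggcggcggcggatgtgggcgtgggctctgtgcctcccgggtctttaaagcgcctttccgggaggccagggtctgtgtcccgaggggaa
Cdt1 (chr8:122567765-122568064, plus strand): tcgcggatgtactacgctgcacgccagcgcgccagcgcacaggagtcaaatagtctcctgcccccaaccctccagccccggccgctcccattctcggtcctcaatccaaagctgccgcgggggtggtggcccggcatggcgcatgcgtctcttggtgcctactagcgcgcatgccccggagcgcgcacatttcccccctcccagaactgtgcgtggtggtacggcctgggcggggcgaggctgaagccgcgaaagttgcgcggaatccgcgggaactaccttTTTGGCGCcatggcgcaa
Rpa3 (chr6:8259092-8259391, minus strand): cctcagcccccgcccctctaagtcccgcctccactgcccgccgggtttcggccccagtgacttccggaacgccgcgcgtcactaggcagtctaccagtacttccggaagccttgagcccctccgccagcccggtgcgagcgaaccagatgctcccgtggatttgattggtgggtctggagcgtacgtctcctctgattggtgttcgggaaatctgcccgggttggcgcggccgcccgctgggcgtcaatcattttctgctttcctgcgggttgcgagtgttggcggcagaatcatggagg
Mcm6 (chr1:128359656-128359955, minus strand): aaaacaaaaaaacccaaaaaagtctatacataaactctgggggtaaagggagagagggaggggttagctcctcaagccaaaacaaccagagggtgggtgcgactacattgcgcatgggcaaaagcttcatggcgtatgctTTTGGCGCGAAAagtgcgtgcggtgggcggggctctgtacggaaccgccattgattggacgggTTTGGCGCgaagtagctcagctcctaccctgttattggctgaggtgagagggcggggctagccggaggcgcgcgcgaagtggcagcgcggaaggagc

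Windows were given for 41 members, and 16 of these genes (39.0%) held E2F letters, against 2.6% of 27025 genes with a window. A gene counted when any of its windows held the letters. By window the shares were 32.0% and 2.26%. Of the 2 windows of Uhrf1 the one with E2F letters was printed. With the wider letters TTTNNCGC the shares by gene were 41.5% and 5.93%. Letters of the FOXO site, GTAAACA on either strand, stood in 2 members (4.88%) and in 4.05% of all genes. CCAAT, on either strand, stood in 26 members (63.4%) and in 41.1% of all genes. The E2F letters lay at different places: the match began 71 bases before the start in Cdca7, 185 before it in Uhrf1, and 32 and 39 bases after it in Cdt1 and Pold1. Mcm6 held 3 matches, of which 2 overlapped on opposite strands, and Rpa3 held none. The printed windows of Uhrf1, Rpa3 and Mcm6 each held 2 CCAAT matches, and those of Pold1, Cdca7 and Cdt1 held 0. A match describes the letters only, and no match says nothing of the factor.

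At 8 h of 4-OHT in the FOXO3 line, RNA of most of the listed replication genes was lower than at time 0. The fusion, 4-OHT and the hours in culture cannot be told apart in this design. By limma 42 of 48 members fell, 1 rose and 5 were not called. A call means a Benjamini-Hochberg adjusted p below 0.05 across all genes tested. Of all 17484 genes 30.5% were called in this comparison, 15.1% lower and 15.4% higher. The median log2 ratio was -0.49 over the members and -0.0023 over all genes. With each gene's fitted dye term removed, the member median per array ran from -0.53 to -0.43. On each array 45 or 46 of 48 members lay below 0. That term is estimated from all 16 arrays, so the corrected arrays are not independent of each other. Array medians as measured are not given. In the FOXO4 line at 8 h, 33 members fell, 1 rose and 14 were not called, where 18.5% of all genes were called, 8.75% lower and 9.71% higher. The FOXO4 median was -0.22, with dye-corrected array medians of -0.29 to -0.20 and 42 to 44 members below 0 per array. In the group means at 8 h, 8933 of all 17484 genes lay below 0 in FOXO3 and 10051 in FOXO4. Lower calls in both lines numbered 32, and Rpa1 alone fell in FOXO4 without a call in FOXO3. The share of all genes called lower in both lines was not counted, and it cannot exceed the 8.75% lower in FOXO4. At 2 h the picture was different: 7 members fell and 3 rose in FOXO3, where 7.8% of all genes were called, 4.34% lower and 3.47% higher. In FOXO4 at 2 h 5 fell and 4 rose, where 8.8% were called, 5.41% lower and 3.39% higher. The member medians at 2 h were 0.012 and -0.011.

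**Figure D1:**
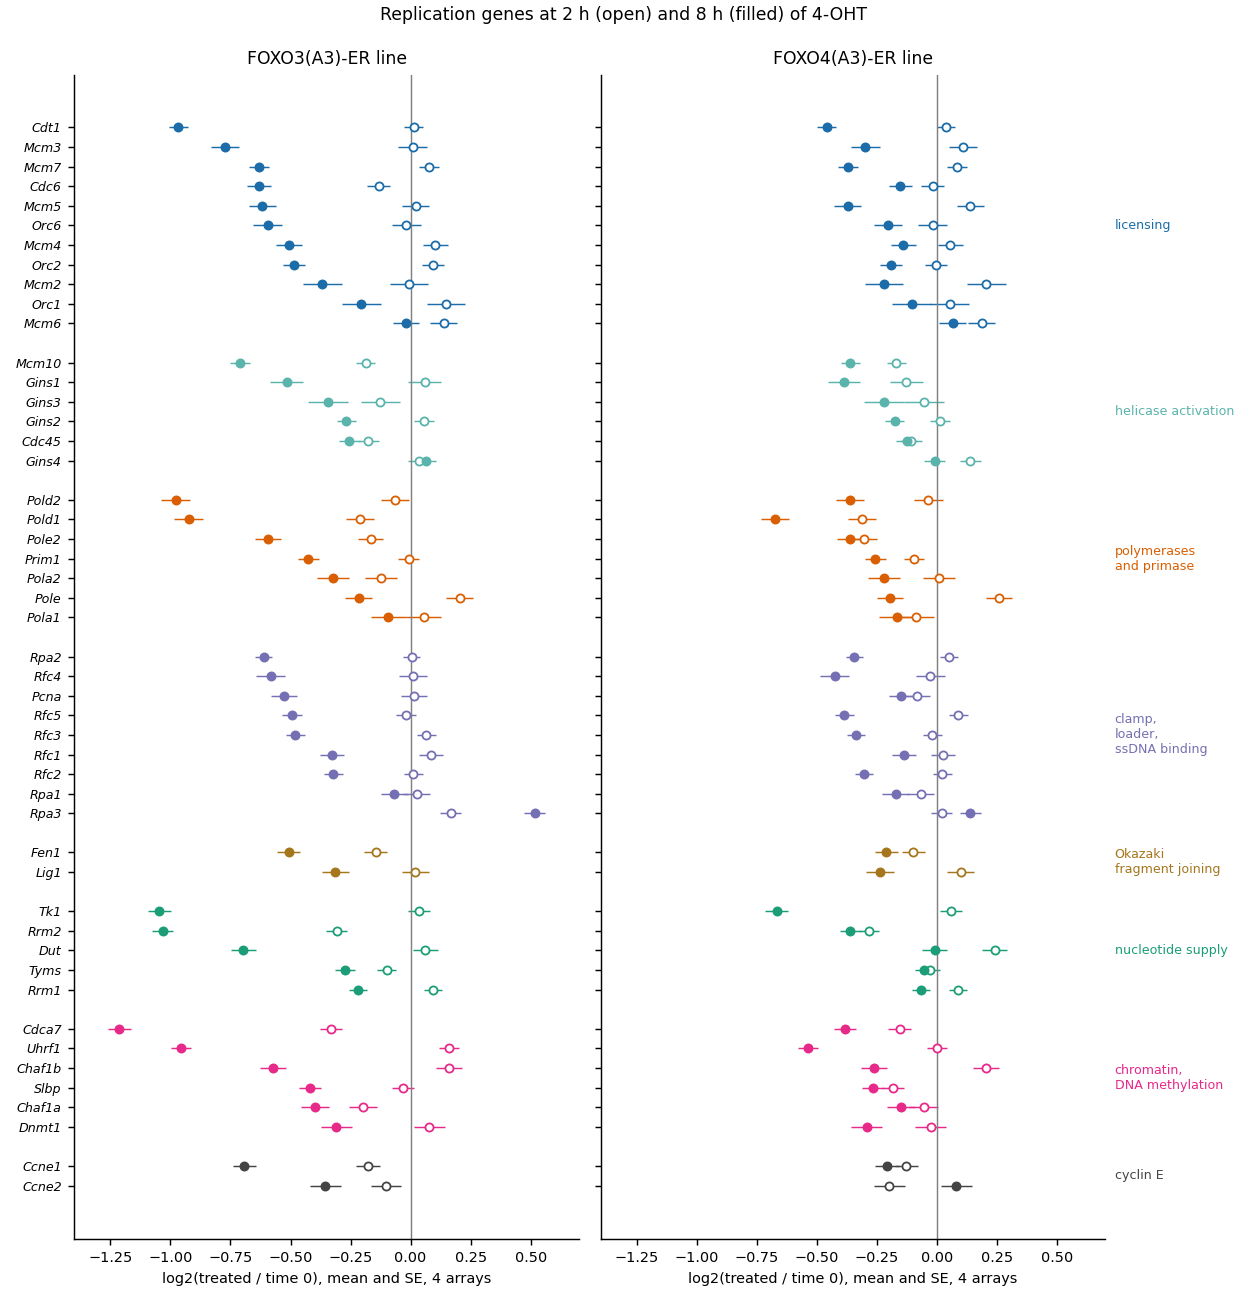
Mean log2(treated / time 0) of the 48 measured members by replication step, in the FOXO3 line (left) and the FOXO4 line (right). Open circles stand for 2 h and filled circles for 8 h, and bars are SEs from the limma fit of all 16 arrays. At 8 h 46 of 48 FOXO3 means and 45 of 48 FOXO4 means lie below 0, while the 2 h means lie on both sides of 0. Over all 17484 genes, 8933 FOXO3 means and 10051 FOXO4 means lie below 0 at 8 h.

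Values per array are given below as log2(treated / time 0) in replicate order, with the gene's fitted dye term removed. This form was chosen after both forms had been seen: arrays of 1 group that shared a dye orientation differed with an SD of 0.112 to 0.188 over genes, and arrays of opposite orientation with 0.386 to 0.517. The correction is estimated from all 16 arrays, so corrected arrays are not independent of each other. It narrows the groups, and counts of arrays that do not overlap are therefore given in both forms.

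Of the 11 licensing genes, 9 fell in FOXO3 at 8 h and 7 in FOXO4. Cdt1, which loads the MCM ring, was the lowest of them. Its ratios in FOXO3 at 8 h were -0.97, -1.02, -0.95 and -0.93, and in FOXO4 -0.53, -0.41, -0.49 and -0.41. At 2 h they were -0.064, -0.023, 0.12 and 0.017 in FOXO3 and 0.045, -0.034, 0.086 and 0.054 in FOXO4. The 8 h arrays of both lines lay below all 2 h arrays, and the FOXO3 arrays below the FOXO4 arrays. The means at 8 h were -0.97 ± 0.0389 (SE, adjusted p = 4.85e-13) and -0.46 ± 0.0389 (adjusted p = 5.18e-08).

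Ratios of the MCM ring subunits ranged widely. In FOXO3 at 8 h Mcm3 fell by 0.77 on the log2 scale, Mcm7 by 0.63, Mcm5 by 0.62, Mcm4 by 0.51 and Mcm2 by 0.37. Mcm6 was at -0.019 ± 0.0552 (adjusted p = 0.865), with arrays at -0.18, -0.051, 0.12 and 0.044, which straddle 0. In FOXO4 at 8 h its arrays were -0.0019, 0.052, 0.15 and 0.068 (mean 0.066, adjusted p = 0.58). Mcm6 rose in FOXO4 at 2 h, by 0.19 ± 0.0552 (adjusted p = 0.0416), from arrays at 0.17, 0.25, 0.26 and 0.065. That call was lost without FOXO4 2 h replicate 1, 2 or 3, and without single arrays of other groups. At 2 h in FOXO3 its arrays were 0.27, 0.25, -0.035 and 0.064, mean 0.14, without a call. The window of Mcm6 printed above is the one with 3 E2F matches. Differences between genes were not tested.

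Cdc6, Orc2 and Orc6 fell at 8 h in FOXO3. Cdc6, the ATPase that works with CDT1, had ratios of -0.59, -0.73, -0.73 and -0.48 and a mean of -0.63 ± 0.0483 (adjusted p = 3.66e-09). In FOXO4 its arrays were higher, -0.14, -0.19, -0.05 and -0.23, with a mean of -0.15 (adjusted p = 0.0328), a call lost without FOXO4 8 h replicate 1, 2 or 4. The origin recognition genes Orc6 and Orc2 fell by 0.60 and 0.49 in FOXO3, and by 0.20 and 0.19 in FOXO4. Both FOXO4 calls were lost with median centring, with external controls and without a dye term, and that of Orc6 also without replicate 2, 3 or 4. Orc1, the ATPase subunit, was not called in either line (-0.21 and -0.11, adjusted p = 0.0649 and 0.529), and a second bright probe gave -0.044 and 0.088. Mcm2 and Mcm4 were not called in FOXO4 at 8 h (-0.22 and -0.14).

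Helicase activation genes fell in 5 of 6 cases in FOXO3 at 8 h and in 4 of 6 in FOXO4. The lowest was Mcm10, an origin factor needed for unwinding. It read -0.69, -0.80, -0.73 and -0.63 in FOXO3 at 8 h and -0.34, -0.37, -0.41 and -0.33 in FOXO4 at 8 h. The 2 h arrays were -0.15, -0.30, -0.19 and -0.11 in FOXO3 and -0.20, -0.23, -0.15 and -0.093 in FOXO4. All 16 arrays were below 0, and the 8 h arrays of each line lay below its 2 h arrays. The 8 h means were -0.71 ± 0.0398 (adjusted p = 5.05e-11) and -0.36 ± 0.0398 (adjusted p = 1.58e-06), and Mcm10 was also called lower at 2 h in both lines. A dimmer Mcm10 probe gave -0.50 and -0.17 at 8 h, and one that lay below the control spots gave -0.16 and -0.047.

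GINS has 4 subunits, and their ratios at 8 h in FOXO3 ran from -0.52 for Gins1 through -0.34 for Gins3 and -0.27 for Gins2 to 0.064 for Gins4. The first 3 fell, and Gins4 was not called in FOXO3 (adjusted p = 0.337) or FOXO4 (-0.0088, adjusted p = 0.962). Gins3 was not called in FOXO4 (-0.22). Cdc45, the third part of the helicase, fell in FOXO3 by 0.26 at 8 h and 0.18 at 2 h, the latter call lost without FOXO3 2 h replicate 2, 3 or 4 and under 3 other settings. Its FOXO4 call at 8 h (-0.13 ± 0.0431, adjusted p = 0.0495) was lost without any 1 array of its group and under 6 other settings.

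Among the polymerase genes, 6 of 7 measured fell at 8 h in FOXO3 and 6 in FOXO4. Both large and small delta subunits were low: Pold1, the catalytic subunit, and Pold2, its partner. Pold1 arrays at 8 h were -0.93, -0.90, -0.94 and -0.92 in FOXO3 and -0.73, -0.63, -0.75 and -0.58 in FOXO4. The 2 h arrays were -0.38, -0.35, 0.09 and -0.20 in FOXO3 and -0.30, -0.43, -0.30 and -0.22 in FOXO4. FOXO3 2 h replicate 3 stood above 0 and the other 15 arrays below it. The 8 h means were -0.92 ± 0.059 (adjusted p = 3.11e-10) and -0.67 ± 0.059 (adjusted p = 7.8e-08), the lowest member mean of the FOXO4 line at 8 h.

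Pold2 read -0.94, -1.13, -0.95 and -0.90 in FOXO3 at 8 h and -0.34, -0.39, -0.33 and -0.39 in FOXO4, so the lines did not overlap. At 2 h it read 0.043, 0.038, -0.13 and -0.20 in FOXO3 and 0.023, 0.18, -0.25 and -0.094 in FOXO4, on both sides of 0. Its 8 h means were -0.98 ± 0.0589 and -0.36 ± 0.0589 (adjusted p = 1.32e-10 and 0.000134).

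Polymerase epsilon is the leading-strand enzyme. Its catalytic gene Pole read 0.077, 0.36, 0.088 and 0.29 in FOXO3 at 2 h and 0.30, 0.35, 0.26 and 0.13 in FOXO4 at 2 h. At 8 h it read -0.26, -0.17, -0.17 and -0.27 in FOXO3 and -0.13, -0.23, -0.061 and -0.35 in FOXO4. All 8 of the 2 h arrays lay above 0 and all 8 of the 8 h arrays below it. Pole rose at 2 h by 0.20 (adjusted p = 0.0237) and 0.26 (adjusted p = 0.00431), and fell at 8 h by 0.22 and 0.19. The rise in FOXO3 was lost without replicate 2 or 4, and the FOXO4 fall without replicate 2 or 4. Pole2, its second subunit, fell at 2 h in FOXO4 (-0.30 ± 0.0532, adjusted p = 0.000908), was at -0.17 in FOXO3 at 2 h without a call, and fell at 8 h by 0.59 in FOXO3 and 0.36 in FOXO4.

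For polymerase alpha and primase, which lay down the first nucleotides of each strand, the primase gene Prim1 fell by 0.43 and 0.26 at 8 h and Pola2 by 0.32 and 0.22, its FOXO4 call lost without any 1 array of its group. Pola1, the catalytic subunit, was not called (-0.094 and -0.17, adjusted p = 0.422 and 0.15). A dimmer Pola1 probe read -0.15 and -0.12, with adjusted p over probes of 0.003 and 0.0299. For Pola2 a second bright probe read -0.32 in FOXO3 and -0.15 in FOXO4, the latter not called (adjusted p over probes = 0.219).

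Genes of the clamp, its loader and RPA fell in 7 of 9 cases in FOXO3 at 8 h and in 6 of 9 in FOXO4, and Rpa3 rose in both. All 5 loader genes fell in FOXO3, from -0.58 for Rfc4 to -0.32 for Rfc2, and 4 fell in FOXO4, where Rfc1 stood at -0.14 without a call. Rfc4 arrays at 8 h were -0.57, -0.65, -0.54 and -0.58 in FOXO3 and -0.22, -0.60, -0.52 and -0.37 in FOXO4. At 2 h they were 0.037, -0.11, -0.046 and 0.16 in FOXO3 and -0.20, -0.041, -0.00088 and 0.14 in FOXO4. The 8 h arrays lay below the 2 h arrays in each line, narrowly so in FOXO4, and the lines overlapped at 8 h. The 8 h means were -0.58 ± 0.0598 (adjusted p = 2e-07) and -0.42 ± 0.0598 (adjusted p = 2.86e-05). Pcna, the sliding clamp, fell by 0.53 in FOXO3 and was at -0.15 in FOXO4 (adjusted p = 0.0645).

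RPA is a trimer, and its 3 genes had unlike ratios in FOXO3 at 8 h: Rpa2 fell by 0.61, Rpa1 stood at -0.068 without a call, and Rpa3 rose. Rpa3, the smallest subunit, read 0.61, 0.49, 0.51 and 0.45 in FOXO3 at 8 h and 0.073, 0.14, 0.22 and 0.23 at 2 h. In FOXO4 it read 0.20, 0.15, 0.071 and 0.13 at 8 h and -0.044, -0.078, 0.037 and 0.16 at 2 h. The FOXO3 8 h arrays lay above those of the other 3 groups. Its FOXO3 means were 0.17 ± 0.0441 at 2 h (adjusted p = 0.0225) and 0.52 ± 0.0441 at 8 h (adjusted p = 1.65e-08), a fold of 1.43 over time 0. The FOXO4 8 h mean was 0.14 (adjusted p = 0.033), a call lost without FOXO4 8 h replicate 1, 2 or 4, with external-control centring, without a dye term and with the replicate block, and the FOXO3 2 h call was lost without replicate 2, 3 or 4. Rpa3 rests on 1 probe. In FOXO4 Rpa2 fell by 0.34 and Rpa1 by 0.17, the latter call lost without any 1 array of its group.

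**Figure D2:**
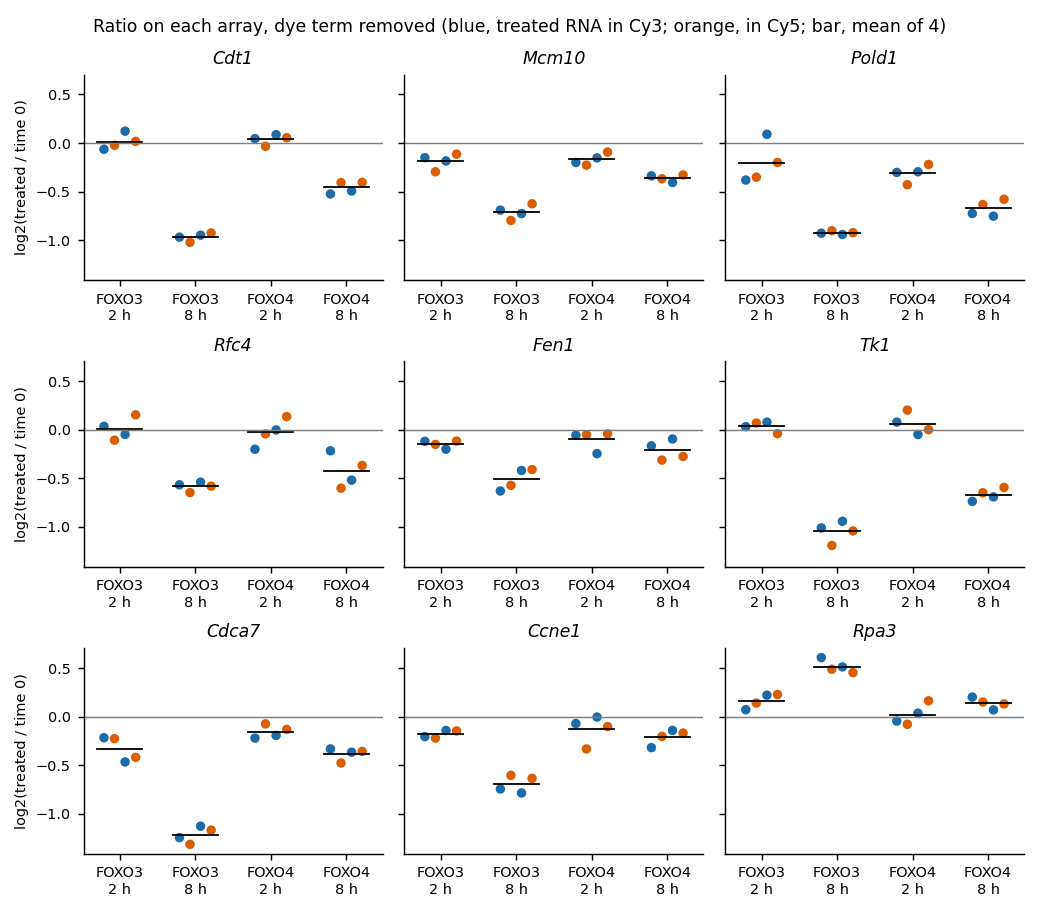
Log2(treated / time 0) on each of the 16 arrays, with the dye term removed, for the member of lowest mean 8 h ratio in each of the 8 steps and for Rpa3; points are arrays coloured by the dye of the treated RNA and bars are means of 4. Cdt1, Mcm10, Pold1, Fen1, Tk1, Cdca7 and Ccne1 show FOXO3 8 h arrays below every other array. Rfc4 does not, and Rpa3 shows them above every other array.

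The Okazaki fragment genes Fen1, the flap nuclease, and Lig1, the ligase, both fell at 8 h in each line, though in FOXO4 both calls were lost with median centring and that of Lig1 also without a dye term. Fen1 read -0.63, -0.57, -0.42 and -0.41 in FOXO3 at 8 h and -0.16, -0.31, -0.094 and -0.27 in FOXO4 at 8 h. At 2 h it read -0.12, -0.15, -0.20 and -0.12 in FOXO3 and -0.055, -0.05, -0.24 and -0.041 in FOXO4. All 16 arrays were below 0, and in FOXO4 the 2 h and 8 h arrays overlapped. The 8 h means were -0.51 ± 0.0482 (adjusted p = 7.13e-08) and -0.21 ± 0.0482 (adjusted p = 0.00337), and Lig1 fell by 0.31 and 0.24.

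All 5 nucleotide supply genes fell in FOXO3 at 8 h, while in FOXO4 Tk1 and Rrm2 fell and Dut, Rrm1 and Tyms were not called. Tk1, the S phase thymidine kinase, read -1.01, -1.19, -0.94 and -1.04 in FOXO3 at 8 h and -0.74, -0.65, -0.69 and -0.59 in FOXO4 at 8 h. At 2 h it read 0.033, 0.071, 0.08 and -0.038 in FOXO3 and 0.08, 0.20, -0.048 and 0.0018 in FOXO4, near 0. The 8 h arrays of each line lay well below its 2 h arrays. The 8 h means were -1.05 ± 0.0465 (adjusted p = 2.03e-12) and -0.67 ± 0.0465 (adjusted p = 3.48e-09), which is 2.06-fold and 1.59-fold lower than time 0. Averaged over the 2 lines, Tk1 had the lowest 8 h ratio of all members.

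Rrm2, the small subunit of ribonucleotide reductase, was low from 2 h on. Its ratios in FOXO3 were -0.35, -0.24, -0.32 and -0.32 at 2 h and -0.98, -1.05, -1.05 and -1.04 at 8 h. In FOXO4 they were -0.39, -0.40, -0.18 and -0.16 at 2 h and -0.39, -0.35, -0.30 and -0.40 at 8 h. All 16 arrays were below 0, and in FOXO4 the times overlapped. Rrm2 fell at 2 h by 0.31 in FOXO3 and 0.28 in FOXO4 (adjusted p = 8.46e-05 and 0.000228), and at 8 h by 1.03 and 0.36 (adjusted p = 7.9e-13 and 4.18e-06). Rrm1, the large subunit, fell by 0.22 in FOXO3 and was at -0.065 in FOXO4 (adjusted p = 0.328).

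Dut, which removes dUTP, gave unlike ratios in the lines. At 8 h it read -0.84, -0.67, -0.56 and -0.71 in FOXO3 and 0.04, -0.045, -0.098 and 0.072 in FOXO4. At 2 h it read 0.058, 0.076, -0.0084 and 0.12 in FOXO3 and 0.16, 0.16, 0.45 and 0.19 in FOXO4. FOXO3 8 h arrays lay below all others, and FOXO4 2 h arrays above all others. Dut fell by 0.70 in FOXO3 at 8 h (adjusted p = 2.59e-09), was at -0.0078 ± 0.052 in FOXO4 (adjusted p = 0.976), and rose in FOXO4 at 2 h (0.24 ± 0.052, adjusted p = 0.00528), a call lost without replicate 3. Tyms, thymidylate synthase, fell by 0.27 in FOXO3 and was at -0.051 in FOXO4 (adjusted p = 0.551).

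The 6 genes of replication-coupled chromatin and DNA methylation all fell in FOXO3 at 8 h, and 5 fell in FOXO4. Cdca7, which works with the HELLS remodeller, held the lowest ratio of any member: -1.25, -1.31, -1.13 and -1.17 in FOXO3 at 8 h. Its FOXO4 8 h ratios were -0.33, -0.48, -0.37 and -0.36. At 2 h they were -0.22, -0.23, -0.47 and -0.42 in FOXO3 and -0.22, -0.074, -0.19 and -0.13 in FOXO4. All 16 arrays were below 0, and the FOXO3 8 h arrays lay far below the other 12. The means at 8 h were -1.21 ± 0.0476 (adjusted p = 3.52e-13, 2.32-fold lower than time 0) and -0.38 ± 0.0476 (adjusted p = 6.83e-06).

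Uhrf1, which brings the maintenance methyltransferase DNMT1 to newly copied DNA, was called higher at 2 h and lower at 8 h in FOXO3. It read 0.084, 0.13, 0.31 and 0.11 at 2 h and -1.09, -0.94, -0.92 and -0.87 at 8 h in FOXO3. In FOXO4 it read 0.033, 0.0078, -0.0099 and -0.03 at 2 h and -0.51, -0.52, -0.56 and -0.55 at 8 h. The FOXO3 2 h arrays lay above 0 and above the FOXO4 2 h arrays, and the FOXO3 8 h arrays lay below the FOXO4 8 h arrays. Uhrf1 rose in FOXO3 at 2 h by 0.16 (adjusted p = 0.0215), a call lost without replicate 2 or 3 and under 5 of 10 other settings, and fell at 8 h by 0.96 and 0.54 (adjusted p = 1.72e-12 and 1.65e-08). Dnmt1 itself fell by 0.31 and 0.29. A second bright Dnmt1 probe gave -0.26 in FOXO3 and -0.12 in FOXO4, the latter not called (adjusted p over probes = 0.101).

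The histone chaperone genes Chaf1a and Chaf1b, subunits of CAF-1, fell by 0.40 and 0.57 in FOXO3. Chaf1b read 0.16, 0.32, 0.18 and 0.16 in FOXO4 at 2 h and -0.13, -0.36, -0.27 and -0.29 at 8 h. In FOXO3 it read 0.31, 0.22, -0.052 and 0.16 at 2 h and -0.67, -0.62, -0.47 and -0.53 at 8 h. The 8 h arrays lay below the 2 h arrays in each line. Chaf1b rose in FOXO4 at 2 h (0.21 ± 0.0541, adjusted p = 0.0212), a call lost without replicate 1, 2 or 3, and fell there at 8 h by 0.26. Chaf1a was at -0.15 in FOXO4 at 8 h without a call. Slbp, which binds histone mRNA, fell at 8 h by 0.42 and 0.27.

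Cyclin E activates CDK2 at the entry into S phase. Ccne1 read -0.74, -0.60, -0.79 and -0.63 in FOXO3 at 8 h and -0.32, -0.20, -0.14 and -0.17 in FOXO4 at 8 h. At 2 h it read -0.20, -0.22, -0.14 and -0.15 in FOXO3 and -0.07, -0.33, -0.0031 and -0.10 in FOXO4. Every array lay below 0, and the FOXO3 8 h arrays lay below the other 12. Its 8 h means were -0.69 ± 0.0491 (adjusted p = 1.29e-09) and -0.21 ± 0.0491 (adjusted p = 0.00453), the latter call lost without FOXO4 8 h replicate 1, and a second probe gave -0.71 and -0.15. Ccne2 fell by 0.35 in FOXO3 and was at 0.081 in FOXO4 (adjusted p = 0.54).

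Of the 34 FOXO4 calls at 8 h, 17 were lost under another setting. Over all genes the 3227 calls of this group became 1856 with external controls and 1608 without a dye term. Median centring ended those of Orc2, Orc6, Cdc6, Cdc45, Pola2, Prim1, Rpa1, Fen1, Lig1, Chaf1b, Slbp and Ccne1. Centring on external controls ended those of Orc2, Orc6, Cdc6, Cdc45, Gins2, Pole, Rpa1, Rpa3 and Ccne1. Leaving out the dye term ended those of Orc2, Orc6, Cdc6, Cdc45, Gins2, Pola2, Pold2, Pole, Rfc5, Rpa1, Rpa3, Lig1 and Chaf1b. The replicate block ended Cdc45, Rpa1 and Rpa3, the deposited values Pole and Rpa1, the mean of probes Pola2, and the FOXO4 line alone or no background subtraction Cdc45.

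The calls at 2 h were few and depended on single arrays. Without FOXO3 2 h replicate 2 the FOXO3 count dropped from 10 members to 3, without replicate 4 to 4 and without replicate 3 to 6. Without FOXO4 2 h replicate 2 the FOXO4 count dropped from 9 to 5. Over all genes, refits without 1 array called 948 to 1504 in FOXO3 at 2 h, against 1364 in the main fit. In FOXO4 at 2 h they called 1015 to 1581, against 1538. Mcm10, Pold1 and Rrm2 fell at 2 h in both lines. The FOXO3 calls were lost without FOXO3 2 h replicate 2 for Mcm10, replicate 1, 2 or 4 for Pold1 and any 1 array of the group for Ccne1, and the FOXO4 call of Mcm10 without FOXO4 2 h replicate 1 or 2. The FOXO3 calls at 2 h other than Rrm2 and Cdca7 (Mcm10, Cdc45, Pold1, Pole, Rpa3, Uhrf1, Chaf1a and Ccne1) were lost with external controls and without a dye term. In FOXO4 at 2 h median centring ended the calls of Mcm6, Mcm10, Dut, Chaf1b and Slbp, external controls those of Mcm6, Pole, Dut and Chaf1b, and leaving out the dye term those of Mcm6, Mcm10, Pole, Chaf1b and Slbp. With centring on external controls 0 members were called higher at 2 h in either line, though the 7 calls kept a positive ratio. Across every setting tried, Rrm2 and Cdca7 kept their 2 h call in FOXO3, and Rrm2, Pold1 and Pole2 theirs in FOXO4.

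Setting 8 h against 2 h within a line cancels the time 0 pool. In FOXO3 38 members were lower at 8 h than at 2 h and 1, Rpa3, was higher, where 21.8% of all genes were called, 9.99% lower and 11.8% higher. In FOXO4 21 were lower and 0 higher, where 10.7% were called, 3.95% lower and 6.74% higher. At an unadjusted p under 0.05 the FOXO4 counts were 31 lower and 1 higher. The share of all genes at that looser cutoff was not counted. The member medians of this difference were -0.45 and -0.19. Uhrf1 and Tk1 differed most in FOXO3 (-1.12 ± 0.0594 and -1.08 ± 0.0658, adjusted p = 1.57e-10 and 8.31e-10), and Tk1 in FOXO4 (-0.73 ± 0.0658, adjusted p = 5.09e-07). On arrays with the dye term removed, 38 members had all FOXO3 8 h arrays below all 2 h arrays (10.5% of all genes) and 1 above (12.3%), and 24 had all FOXO4 8 h arrays below (6.08%) and 0 above (8.74%). As measured, with the dye term left in, these counts were 31 (6.85%), 1 (7.71%), 18 (2.88%) and 0 (4.72%). The FOXO4 count of calls depended on scaling and dye: 10 members were called with median centring, 9 with centring on external controls and 9 without a dye term. Over all genes 840 were called with external controls and 601 without a dye term, against 1869 in the main fit. In this comparison 30 of the 39 FOXO3 calls and 6 of the 21 FOXO4 calls (Cdt1, Mcm5, Mcm7, Tk1, Uhrf1 and Chaf1b) held under every setting.

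The lines were compared at matched times. At 2 h limma called 0 members different, where 0.0343% of all genes were called, 0.0172% in each direction. With the dye term removed, 1 member did not overlap with FOXO3 below (1.16% of all genes) and 2 with FOXO3 above (1.34%), and as measured 1 (0.366%) and 1 (0.446%). At an unadjusted p under 0.05 limma gave 5 members at 2 h, 2 lower and 3 higher in FOXO3. The share of all genes at that looser cutoff was not counted. At 8 h 21 members were lower in FOXO3 than in FOXO4 and 1, Rpa3, was higher, where 10.6% of all genes were called, 5.28% lower and 5.37% higher. In 44 of 48 members the FOXO3 ratio was below the FOXO4 ratio at 8 h, and the median difference was -0.23. The FOXO3 ratio was below in 8021 of all 17484 genes. Cdca7 differed by -0.83 ± 0.0673 (adjusted p = 2.84e-07), Dut by -0.69 ± 0.0735 (5.5e-06), Rrm2 by -0.67 ± 0.0609 (9.24e-07) and Pold2 by -0.62 ± 0.0832 (6.46e-05). Cdt1, Cdc6, Ccne1 and Uhrf1 differed by -0.51, -0.48, -0.48 and -0.42. Pold1 was not called (-0.25 ± 0.0835, adjusted p = 0.0665), though its FOXO3 8 h arrays lay below its FOXO4 arrays. With the dye term removed 28 members did not overlap with FOXO3 below (8.36% of all genes) and 1 with FOXO3 above (8.53%), and as measured 20 (4.75%) and 1 (4.36%). The lines are separate clones and the levels of the fusion proteins were not analysed here, so factor, clone and fusion level cannot be told apart.

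The interaction asks whether the change from 2 h to 8 h differed between the lines, and the pools cancel in it. By limma 14 members changed more in the lower direction in FOXO3, and 0 the other way, where 3.31% of all genes were called, 1.43% lower and 1.88% higher. At an unadjusted p under 0.05 the counts were 28 and 1. The share of all genes at that looser cutoff was not counted. All 14 were also among the 22 called between the lines at 8 h. Both comparisons use the same 8 h arrays, so this overlap is partly built in. Its share of all genes was not counted. Rrm2 gave -0.65 ± 0.0861 (adjusted p = 0.00034), Cdca7 -0.65 ± 0.0951 (0.000747), Pold2 -0.59 ± 0.118 (0.00824) and Uhrf1 -0.58 ± 0.084 (0.000738). The count fell to 6 with median centring, 4 with external controls and 3 without a dye term. Over all genes 178, 29 and 69 were called there, against 578 in the main fit. The member count fell to 9 without FOXO3 8 h replicate 3, FOXO4 2 h replicate 1 or FOXO4 8 h replicate 3. Refits without 1 array called 389 to 609 of all genes. The Tk1, Cdc6 and Mcm4 calls were lost in most refits without 1 array. Rrm2, Uhrf1 and Cdca7 kept their interaction call under every setting, and Cdt1, Mcm3, Rrm2, Dut, Uhrf1, Cdca7 and Ccne1 their call between the lines at 8 h. The Rpa3 difference between the lines (0.38 ± 0.0623, adjusted p = 0.000424) was lost with median centring and with external controls.

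**Figure D3:**
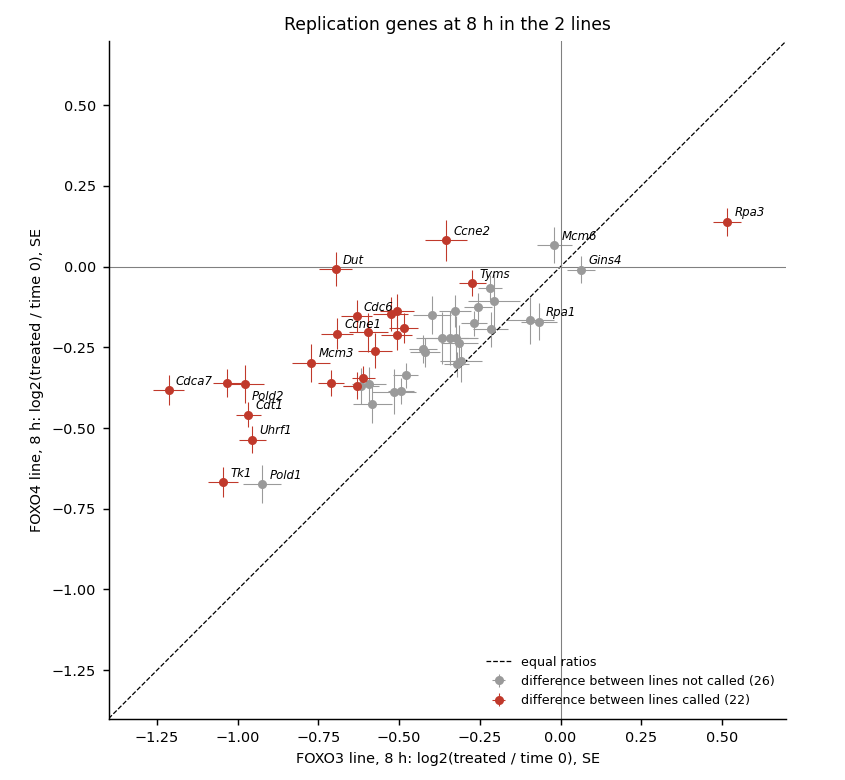
Log2(treated / time 0) at 8 h in the FOXO3 line (x) against the FOXO4 line (y) for 48 members, red where limma called the lines different. Bars are SEs from the limma fit of all 16 arrays, and the dashed line marks equal ratios. The FOXO3 ratio is below the FOXO4 ratio in 44 members (8021 of all 17484 genes), and Rpa3 stands alone at the upper right.

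The other genes of replication come from a list chosen with earlier results known. Of 35 further replication genes 24 fell and 4 rose in FOXO3 at 8 h, with a median of -0.29. In FOXO4 16 fell, 3 rose and 16 were not called, with a median of -0.13. Of all genes, 15.1% were called lower and 15.4% higher in FOXO3 at 8 h, and 8.75% and 9.71% in FOXO4. Hells, the remodeller partnered by CDCA7, fell by 0.80 in FOXO3 (adjusted p = 5.54e-10) and 0.24 in FOXO4, Timeless by 0.54 and 0.46, and Topbp1, the checkpoint and origin factor, by 0.53 and 0.40. Pold4, the smallest delta subunit, rose by 0.53 ± 0.0447 in FOXO3 (adjusted p = 1.42e-08) and 0.19 in FOXO4, opposite to Pold1 and Pold2.

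Of 16 other nucleotide supply genes measured, 11 fell and 2 rose in FOXO3 at 8 h, and 9 fell and 1 rose in FOXO4. The shares of all genes were 15.1% lower and 15.4% higher in FOXO3, and 8.75% and 9.71% in FOXO4. Dctd, which makes dUMP, was at -1.06 ± 0.0334 and -0.54 ± 0.0334 in FOXO3 and FOXO4, and the folate enzyme gene Shmt1 at -1.07 ± 0.0484 and -0.48 ± 0.0484, and both fell. The gene for the dNTP hydrolase Samhd1 rose by 1.85 ± 0.0713 in FOXO3 and 1.44 ± 0.0713 in FOXO4 at 8 h (adjusted p = 2.93e-13 and 3.4e-11), the highest value of this list. All 8 S phase checkpoint genes were called in FOXO3 at 8 h, 7 lower and Rad17, a clamp loader gene, higher. In FOXO4 5 fell, 0 rose and 3 were not called. Lower genes in FOXO3 included the clamp gene Hus1 (-0.80) and the kinase genes Wee1 (-0.64) and Chek1 (-0.61).

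**Figure D4:**
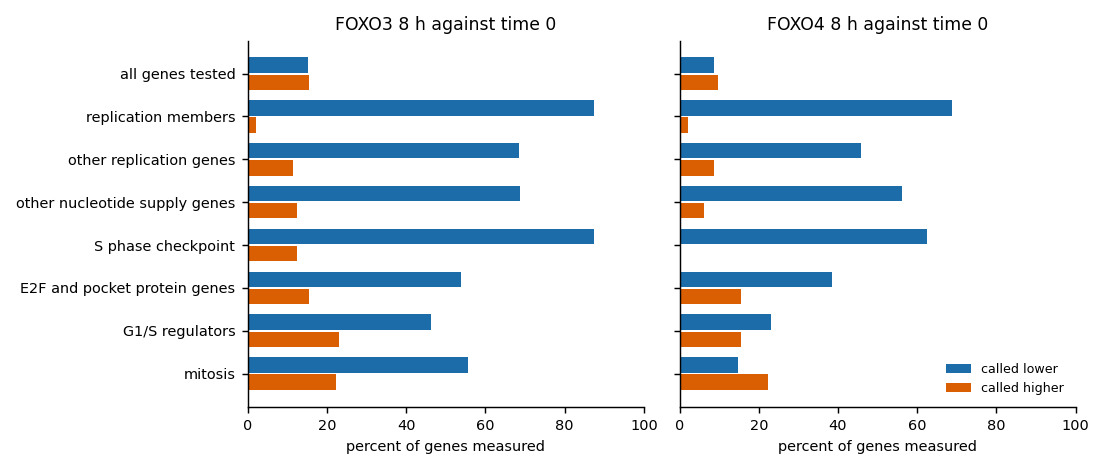
Percent of measured genes that limma called lower (blue) or higher (orange) at 8 h in FOXO3 (left) and FOXO4 (right), for all 17484 genes, the 48 members and 6 other lists. In FOXO3 42 of 48 members and 24 of 35 other replication genes were called lower, against 15.1% of all genes.

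Among 13 E2F and pocket protein genes, 7 fell and 2 rose in FOXO3 at 8 h, and 5 fell and 2 rose in FOXO4. Of all genes, 15.1% were called lower and 15.4% higher in FOXO3, and 8.75% and 9.71% in FOXO4. The share of this list that rose in FOXO3 was near that of all genes. E2f1, an activator of S phase genes named after its values were seen, fell by 0.53 in FOXO3 (adjusted p = 5.94e-05) and was at -0.21 in FOXO4 without a call, and its partner gene Tfdp1 fell by 0.48 and 0.29. Rb1, the pocket protein that restrains E2F, rose by 1.12 ± 0.0668 in FOXO3 and 0.60 ± 0.0668 in FOXO4 (adjusted p = 1.17e-10 and 1.6e-06), while its relative Rbl1 fell by 0.37 and 0.36.

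Of 13 G1/S regulators 6 fell and 3 rose in FOXO3 at 8 h, and 3 fell and 2 rose in FOXO4. The shares of all genes were 15.1% lower and 15.4% higher in FOXO3, and 8.75% and 9.71% in FOXO4. The CDK inhibitor genes Cdkn1b and Cdkn2c rose by 0.51 and 0.44 in FOXO3 and by 0.26 and 0.19 in FOXO4. Cdkn1a fell at 2 h in both lines, by 0.60 and 0.79, and at 8 h it had risen by 0.43 in FOXO3 and was at 0.013 in FOXO4 without a call. Ccnd2, a D-type cyclin, fell by 0.67 and 0.47 at 8 h.

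Mitosis genes moved in both directions. Of 27 measured, 15 fell and 6 rose in FOXO3 at 8 h, and 4 fell and 6 rose in FOXO4, with medians of -0.27 and -0.0099. The shares of all genes were 15.1% lower and 15.4% higher in FOXO3, and 8.75% and 9.71% in FOXO4. Nusap1 and the kinetochore gene Ndc80 rose by 0.86 and 0.85 in FOXO3, and the kinase gene Aurkb fell by 0.49. The difference between this list and the members was not tested.

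**Figure D5:**
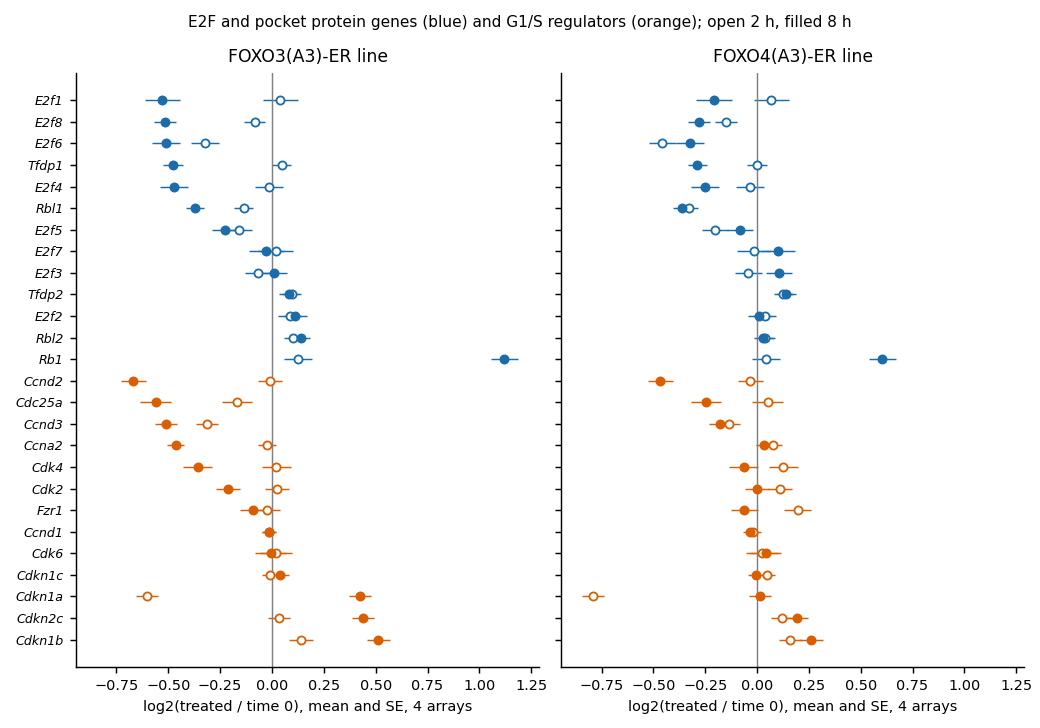
Mean log2(treated / time 0) for 13 E2F and pocket protein genes (blue) and 13 G1/S regulators (orange) in the FOXO3 line (left) and the FOXO4 line (right). Circles are open at 2 h and filled at 8 h, and bars are SEs from the limma fit of all 16 arrays. Rb1 is the highest at 8 h in both lines, and Cdkn1a is the lowest at 2 h in both.

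Members with and without E2F letters fell in most cases. Of the 16 members with letters, 13 fell in FOXO3 at 8 h, with a median of -0.61, and of the 25 without, 23 fell and 1 rose, with a median of -0.49. In FOXO4 12 of 16 and 17 of 25 fell, with medians of -0.32 and -0.21. Of all genes, 15.1% were called lower in FOXO3 at 8 h and 8.75% in FOXO4. Tk1 and Rrm2, among the lowest members, had no E2F letters in their windows, and Mcm6, with 3 matches, was not called at 8 h in either line. This split was not tested.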

How the data were processed

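RNA of both Ba/F3 lines after 2 h and 8 h of 4-OHT was set against each line's time 0 pool on 16 arrays of 2 colours. Spot intensity stands in the deposited scanner output per the file headers, for 2 channels, beside a local background that had not been taken off. Normalized intensities were deposited too, with a table of log2 ratios, which equalled log2(treated / time 0) of those intensities to within 5e-06. How the authors normalized them, and with which software, the labels and headers do not state. Channel 1 was taken as Cy5, since it tracked the deposited Cy5 values better on 16 of 16 arrays.

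From the scanner intensities, background was corrected with normexp (offset 50), and ratios were normalized by loess within arrays with control spots at weight 0. A probe had to exceed background by 2 SDs in 1 of its channels on 4 or more arrays, and this filter dropped 942 of 31769 gene probes. Each gene was read from its brightest probe, and names came from the platform annotation, updated through RefSeq (1981 symbols). All 16 arrays entered 1 limma fit (version 3.58.1, R 4.3.3) with a mean for each of the 4 groups and a dye effect per gene. Calls needed a two-sided Benjamini-Hochberg adjusted p below 0.05 over 17484 genes, and adjusted p-values are from this fit, or from the same fit over probes where so stated. The fit was tested on simulated data.

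Replicates are called independent in the series design. The labels do not say which cultures they were, so p-values measure the spread between these arrays. The titles use the same replicate numbers at both times, and 1 of 8 same-number correlations of deviations was over 0.1. The 4 deviations of a group are tied by its mean and the dye term, so these correlations cannot exclude shared cultures. The members and all gene lists were chosen with earlier results of these data known. Genes were named with array values when lowest in their step, called higher against time 0, or among the 8 of smallest adjusted p between the lines, and members not called at 8 h were named. The promoter rule printed the 4 lowest members with E2F letters and the 2 highest that have a window, read as needing no letters. Alternatives were background, deposited values, centring, dye term, probe filters, probe means, single-line fits, a replicate block and leaving out each array. External-control centring used the 1 of 14 control types with a detectable signal (144 spots). The use of dye-corrected array ratios was chosen after seeing the data. No slide or scan column was among the values used, so no such block was run.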

Additional observations from a re-analysis of the deposited data

Results flagged for a closer look

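With the dye term removed, 10 of 192 groups of 4 arrays held 1 array far from the other 3 by Dixon's criterion, and 4 of 192 did with ratios as measured. Chance gives such an array in about 5% of groups. In FOXO3 at 2 h Dnmt1 stood at 0.37 on replicate 3, with the others from -0.042 to 0.015. In FOXO3 at 8 h replicate 1 stood apart for Dnmt1 (-0.27) and for Rrm2 (-0.98), by small distances. In FOXO4 at 2 h Chaf1b stood at 0.32 and Orc1 at -0.32 on replicate 2, Dut at 0.45 and Fen1 at -0.24 on replicate 3, and Gins4 at -0.028 on replicate 1. In FOXO4 at 8 h replicate 1 read -0.52 for Mcm7 and 0.036 for Rrm1.

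By limma 22 members differed between the lines at 8 h, in FOXO3 minus FOXO4 log2 ratios. Among licensing and helicase genes the differences were -0.51 for Cdt1, -0.48 for Cdc6, -0.47 for Mcm3, -0.39 for Orc6, -0.37 for Mcm4, -0.35 for Mcm10, -0.30 for Orc2 and -0.26 for Mcm7. Fork genes gave -0.62 for Pold2, -0.38 for Pcna, -0.30 for Fen1, -0.27 for Rpa2 and 0.38 for Rpa3. Nucleotide supply genes gave -0.69 for Dut, -0.67 for Rrm2, -0.38 for Tk1 and -0.22 for Tyms. Chromatin and cyclin E genes gave -0.83 for Cdca7, -0.42 for Uhrf1, -0.31 for Chaf1b, -0.48 for Ccne1 and -0.44 for Ccne2. The Tyms call was lost without FOXO3 8 h replicate 1 or 2 or FOXO4 8 h replicate 1 or 4, and the Chaf1b call without FOXO4 8 h replicate 1.

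The change from 2 h to 8 h differed between the lines for 14 members, each lower in FOXO3. The interaction was -0.65 for Cdca7 and Rrm2, -0.59 for Pold2, -0.58 for Uhrf1, -0.53 for Ccne2, -0.51 for Dut, -0.48 for Cdt1, -0.47 for Pcna, -0.43 for Ccne1, -0.41 for Mcm4, -0.39 for Orc2, -0.36 for Cdc6 and Tk1, and -0.33 for Mcm10.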

How the results depend on the processing

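No result changed direction with a call under any alternative run. The FOXO3 8 h count stayed at 43 to 44 members leaving out each array, and 37 of its 43 calls held under every setting. The 6 others (Cdc45, Gins2, Gins3, Pola2, Pole and Ccne2) were lost without a dye term. For FOXO4 at 8 h 17 of 34 calls held under every setting. With median centring the counts were 5 (FOXO3 2 h), 4 (FOXO4 2 h), 22 (FOXO4 8 h), 10 (FOXO4 8 h against 2 h) and 6 (interaction), and member medians were -0.029 (FOXO3 2 h), -0.29 (lines at 8 h) and -0.32 (interaction). With external controls the counts were 2 (FOXO3 2 h), 9 (FOXO4 8 h against 2 h), 10 (lines at 8 h) and 4 (interaction), and medians were -0.014 (FOXO3 2 h), -0.56 (FOXO3 8 h), -0.12 (FOXO4 2 h), -0.13 (FOXO4 8 h against 2 h), 0.059 (lines at 2 h) and -0.35 (interaction). That centring put the median of all genes at -0.03 in FOXO3 2 h, -0.069 in FOXO3 8 h, -0.11 in FOXO4 2 h and -0.053 in FOXO4 8 h. Without a dye term the counts were 2 (FOXO3 2 h), 4 (FOXO4 2 h), 21 (FOXO4 8 h), 9 (FOXO4 8 h against 2 h), 11 (lines at 8 h) and 3 (interaction). With the main settings 1364 (FOXO3 2 h), 1538 (FOXO4 2 h) and 3227 (FOXO4 8 h) of all genes were called. For FOXO4 8 h against 2 h, the lines at 8 h and the interaction they were 1869, 1862 and 578. Leaving out the dye term gave 466, 480, 1608, 601, 557 and 69, in that order. External controls gave 529 (FOXO3 2 h), 840 (FOXO4 8 h against 2 h), 612 (lines at 8 h) and 29 (interaction). Median centring gave 1009 (FOXO4 2 h) and 178 (interaction). The cause of these moves was not tested. Leaving out each array gave counts of 3 to 11 (FOXO3 2 h), 5 to 10 (FOXO4 2 h), 27 to 37 (FOXO4 8 h), 37 to 40 and 17 to 22 (8 h against 2 h in FOXO3 and FOXO4), 20 to 24 (lines at 8 h) and 9 to 13 (interaction). In the same order these refits called 948 to 1504, 1015 to 1581, 2529 to 3388, 3414 to 3954, 1442 to 1894, 1429 to 1995 and 389 to 609 of all genes. For FOXO3 8 h the range over all genes was 4738 to 5473. All genes called between the lines at 2 h numbered 6. They numbered 1 to 3 with other scalings, no dye term or the block, and 10 from the deposited values.

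The replicate number as a block, which takes the place of the dye term, gave 43 members in FOXO3 8 h, 33 in FOXO4 8 h, 22 between the lines at 8 h and 12 in the interaction. At 2 h it gave 8 and 7. Same-number correlations ran from -0.39 to 0.17 and 2 of 8 arrays at 2 h correlated best with their own number, so the numbers are not treated as pairs. The block moved no count of members by over 1.5 times. Dim probes below the control spots (2 of Mcm3, 1 of Mcm10 and 1 of Pola2) read no lower than -0.16 at 8 h, which limits what low signal can show.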

Other observations

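Further genes around S phase moved at 8 h. Among E2F genes, E2f8 fell by 0.52 in FOXO3 and 0.28 in FOXO4, and E2f4 by 0.47 and 0.25. E2f6, a repressor, fell already at 2 h, by 0.32 and 0.46. Purine synthesis was represented by Gart, at -0.97 ± 0.0495 in FOXO3 and -0.33 ± 0.0495 in FOXO4, and one-carbon supply by Mthfd1, at -0.72 ± 0.0463 and -0.28 ± 0.0463, and both genes fell in both lines. The checkpoint genes Rad1 and Hus1 fell at 2 h as well as at 8 h in both lines, with FOXO3 ratios of -0.44 and -0.64 for Rad1 and -0.27 and -0.80 for Hus1. The B-type cyclin gene Ccnb2 rose at every time in both lines, by 0.31 and 0.65 in FOXO3 and 0.26 and 0.42 in FOXO4, while the A-type cyclin gene Ccna2 fell by 0.47 in FOXO3 at 8 h and was at 0.034 in FOXO4 without a call.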
